A study of Caenorhabditis elegans with 2 samples.

Results

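The regions described here are the ELT-2 peaks of the X chromosome of Caenorhabditis elegans whose summits lay outside every promoter window. A promoter window ran from 1000 bp upstream to 500 bp downstream of the 5′ end of a protein-coding transcript. The rule was applied to the authors' list of peaks that passed the irreproducible discovery rate (IDR) filter on build ce11, with the summit taken as the start of the peak plus the deposited offset. It left 1039 summits, out of 1967 on X and 9181 on the nuclear chromosomes. The same class on the autosomes held 2858 of 7214 summits and served for comparison. The members were not chosen by the strength of their peaks, beyond the strength needed to enter the list.

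The peaks came from chromatin immunoprecipitation with an antibody against GFP, followed by sequencing, of whole hermaphrodites at the L3 larval stage, collected 40 hours after synchronization as starved L1 larvae. The strain was OP56, genotype unc-119(ed3) III with wgIs56, a transgene that stably expresses ELT-2 fused to GFP and FLAG at its C-terminus. The labels give the antibody both as against GFP and as elt-2. All animals were of this 1 strain, so every value refers to the tagged protein in whole worms rather than in dissected intestine. The 2 samples, biological replicates 1 and 2, formed a single group, so no condition was compared and no test over samples was possible. The comparison of X with the autosomes was made within the same libraries.

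ELT-2 is a GATA-type zinc finger transcription factor that is made in the intestine, where it acts on genes of digestion, metabolism, storage and defence, and it recognises the sequence TGATAA. Hermaphrodites carry a pair of X chromosomes, and a dosage compensation complex related to condensin lowers transcription from both of them. Sites outside promoters include the introns of long genes and the spacers between genes, where enhancers of C. elegans are known to lie.

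The sequences below, on the plus strand of ce11 and taken from the RefSeq genome of the same assembly (WBcel235), run 100 bp to either side of the summit and are shown because they carry the range of TGATAA found among the strongest members. Capitals mark TGATAA or its reverse complement TTATCA. The first 4 are among the 10 strongest members and have from 1 to 4 sites: sdz-19 (chrX:12500906-12501106), slc-25A21 (chrX:16192652-16192852), mob-2 (chrX:13165790-13165990) and fkh-9 (chrX:3823957-3824157).
sdz-19: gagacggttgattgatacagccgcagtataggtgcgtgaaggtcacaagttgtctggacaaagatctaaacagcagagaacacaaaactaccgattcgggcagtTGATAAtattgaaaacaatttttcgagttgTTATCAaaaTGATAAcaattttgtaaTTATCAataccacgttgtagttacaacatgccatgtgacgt
slc-25A21: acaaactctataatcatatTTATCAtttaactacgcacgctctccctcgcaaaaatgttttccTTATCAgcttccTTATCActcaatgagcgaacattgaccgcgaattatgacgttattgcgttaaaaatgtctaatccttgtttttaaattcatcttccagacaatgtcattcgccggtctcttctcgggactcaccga
mob-2: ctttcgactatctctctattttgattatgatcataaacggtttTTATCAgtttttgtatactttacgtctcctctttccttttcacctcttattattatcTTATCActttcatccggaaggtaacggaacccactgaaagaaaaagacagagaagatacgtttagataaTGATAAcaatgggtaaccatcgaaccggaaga
fkh-9: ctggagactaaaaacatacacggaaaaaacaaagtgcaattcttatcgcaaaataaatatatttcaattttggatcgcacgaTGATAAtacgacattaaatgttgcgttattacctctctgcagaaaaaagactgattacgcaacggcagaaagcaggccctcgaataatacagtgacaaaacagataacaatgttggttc
Another 3 windows show the strongest member of all, nearest to bcat-1 (chrX:12872339-12872539), an exonic member in gln-1 (chrX:6059471-6059671) and a distant one upstream of dve-1 (chrX:440562-440762).
bcat-1: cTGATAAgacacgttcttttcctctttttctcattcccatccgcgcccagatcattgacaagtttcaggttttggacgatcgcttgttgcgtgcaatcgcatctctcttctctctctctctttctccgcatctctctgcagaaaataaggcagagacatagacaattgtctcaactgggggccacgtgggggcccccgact
gln-1: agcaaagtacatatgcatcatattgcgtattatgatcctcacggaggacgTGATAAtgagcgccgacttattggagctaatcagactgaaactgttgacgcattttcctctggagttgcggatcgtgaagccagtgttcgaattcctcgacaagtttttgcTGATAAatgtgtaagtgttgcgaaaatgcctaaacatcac
dve-1: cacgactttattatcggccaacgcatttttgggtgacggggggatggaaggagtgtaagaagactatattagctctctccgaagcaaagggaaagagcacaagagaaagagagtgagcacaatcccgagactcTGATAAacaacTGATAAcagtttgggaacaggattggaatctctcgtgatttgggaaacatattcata
Strong members without any TGATAA are represented by those nearest to hrg-1 (chrX:4007778-4007978) and sma-9 (chrX:10766253-10766453).
hrg-1: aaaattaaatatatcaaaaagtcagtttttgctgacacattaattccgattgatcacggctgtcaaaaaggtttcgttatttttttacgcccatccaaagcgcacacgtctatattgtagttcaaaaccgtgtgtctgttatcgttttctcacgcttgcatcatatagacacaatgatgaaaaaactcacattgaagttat
sma-9: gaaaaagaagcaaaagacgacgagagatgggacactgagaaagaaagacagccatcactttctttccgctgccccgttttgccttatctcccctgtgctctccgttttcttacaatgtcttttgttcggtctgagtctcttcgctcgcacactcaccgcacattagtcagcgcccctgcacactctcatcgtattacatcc
The last window is that of a member nearest to ets-5 (chrX:5085487-5085687), at a tRNA gene, where the capitals mark the reverse complement of GTTCGA, letters found in the internal promoter of tRNA genes.
ets-5: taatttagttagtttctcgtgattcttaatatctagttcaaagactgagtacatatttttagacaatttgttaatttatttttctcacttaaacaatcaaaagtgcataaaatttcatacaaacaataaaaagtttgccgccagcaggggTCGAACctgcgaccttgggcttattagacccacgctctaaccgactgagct

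X held more of its summits outside promoters than any autosome. Of the 1967 summits on X, 1039 (52.8%, exact 95% interval 50.6 to 55.05) lay outside the windows, against 2858 of 7214 on the autosomes (39.6%, 38.5 to 40.8). The difference was 13.2 percentage points (95% interval 10.7 to 15.7). Intervals here and below cover counting error only, and neighbouring summits are not independent of each other. The shares of the single autosomes ran from 37.03% on V to 42.3% on III. In the lists of the separate replicates, cut to as many of the strongest peaks, the share was 52.9% on X against 40.8% on the autosomes in replicate 1, and 52.2% against 39.04% in replicate 2. Sequence outside the windows made up 73.2% of X and 67.1% of the autosomes.

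Per length of sequence, the density of summits outside promoters was also higher on X. It was 80.1 summits per Mb of sequence outside the windows on X, against 51.6 on the autosomes, a ratio of 1.55 (exact 95% interval 1.44 to 1.67). The autosomes ranged from 45.7 on IV to 61.5 on II, and the interval of X did not reach any of theirs. Inside promoter windows the ratio was smaller, 195.5 per Mb on X against 160.4 on the autosomes, or 1.22 (1.13 to 1.31). The ratio outside promoters was 1.51 in replicate 1 alone and 1.55 in replicate 2 alone. X has fewer coding genes per Mb (154, against 209 on the autosomes) and slightly more TGATAA per Mb (1109, against 1039). Whether these properties account for the density was not tested.

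**Figure D1:**
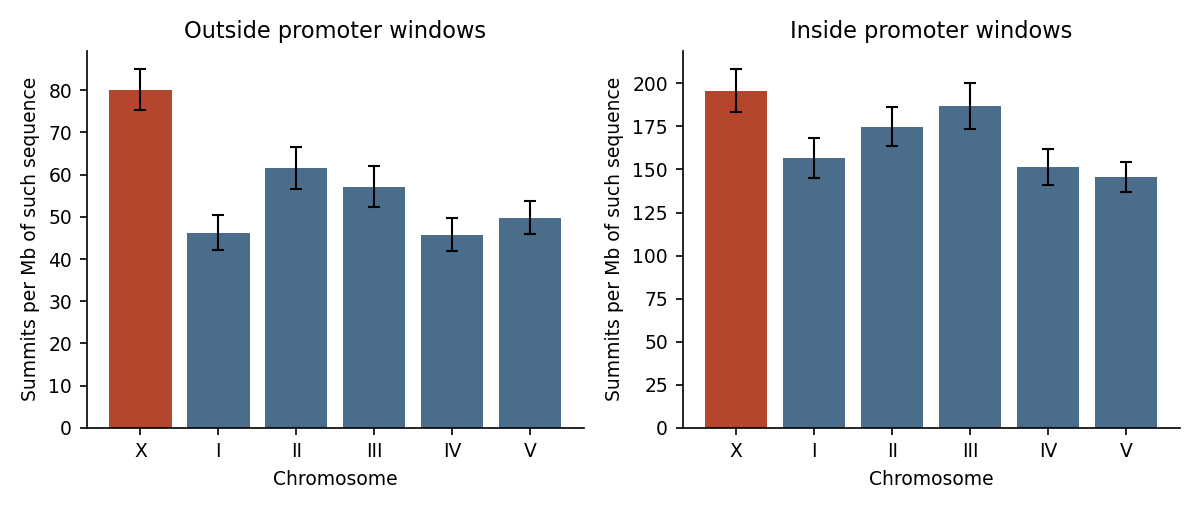
Summits per Mb of sequence outside (left) and inside (right) promoter windows on each chromosome, X in red and the autosomes in blue, with exact 95% Poisson intervals as bars. Outside the windows X stood at 80.1 per Mb and the autosomes between 45.7 and 61.5, while inside them the interval of X overlapped those of II and III.

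The members were spread unevenly along X. In steps of 1 Mb, their density ran from 39.4 per Mb in the first to 137.4 in the seventh, which held 94 members, and 125.3 in the 14th, which held 88. With the chromosome split into 3 equal parts it was 67.3 per Mb in the left, 83.1 in the central and 89.99 in the right part. Each autosome had its highest density in the central part, from 56.7 per Mb on IV to 86.2 on II, and lower values in both outer parts. Within central parts only, the ratio of X to the autosomes was 1.23 (1.09 to 1.39), and chromosome II exceeded X there. The gene elt-2 itself (X:10481240-10483441) lay in a stretch of 83.7 kb without a summit in any list used here, so nothing can be said about members near it. The longest stretch without an IDR-passing summit measured 240 kb, between summits at 59315 and 299315, and held 23 coding genes.

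Members often stood close together. Of the 1039, 338 (32.5%) had another member within 1 kb, against 28.8% of the autosomal summits outside promoters. Within 5 kb the shares were 69.01% on X and 61.8% on the autosomes. These shares were not corrected for the higher density of members on X. No pair of neighbours lay closer than 199 bp on X or on the autosomes, and 99 gaps between X members were under 250 bp, and whether such neighbours are parts of 1 enriched region was not tested. With all X and autosomal summits under 250 bp apart merged into the strongest, promoter summits included, 936 summits outside promoters were left on X. The density ratio was then 1.52, under this alternative chosen after seeing the data.

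By annotation, 610 members (58.7%) were intergenic, 320 (30.8%) lay in introns and 109 (10.5%) in exons. The corresponding shares of autosomal summits were 55.9%, 33.0% and 11.1%, and the intervals of all 3 differences included 0. Of the 12.97 Mb of X outside the windows, 5.71 Mb were intergenic, 4.09 Mb intronic and 3.17 Mb exonic, against 19.3, 20.2 and 15.8 Mb of 55.4 Mb on the autosomes. Density relative to the same kind of sequence was 1.68 times that of the autosomes in introns (78.2 against 46.6 per Mb), 1.72 times in exons (34.4 against 20.01) and 1.29 times in intergenic sequence (106.9 against 82.7). The intervals were 1.47 to 1.91, 1.37 to 2.14 and 1.18 to 1.42. The intron holding a member had a median length of 1317 bp on X and 2255 bp on the autosomes, and 29.7% of the intronic members lay in the first intron of the longest transcript, against 27.9%. Of the intergenic members, 33.1% lay between divergent starts, 53.9% between genes in tandem and 12.6% between convergent ends. These shares were 31.0%, 58.05% and 10.8% among the autosomal ones. Of the intergenic bases of X outside the windows, 33.5%, 53.2% and 12.6% lay in the same 3 kinds of spacer. On the autosomes these shares of bases were 29.0%, 53.5% and 17.4%.

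The distance from a member to the nearest coding start had a median of 2073 bp, against 1808.5 bp on the autosomes. Positions in the sequence outside the windows had medians of 2222 bp on X and 2016 bp on the autosomes. Of the members, 399 (38.4%) lay at 1 to 2 kb, against 1229 of the 2858 autosomal summits, a difference of -4.60 points (-8.03 to -1.10). At 2 to 5 kb lay 41.3% of the members, against 36.5% (4.80 points, 1.34 to 8.28). Beyond 5 kb lay 10.1% of the members (8.34 to 12.1), against 236 autosomal summits (8.26%, 7.27 to 9.33). Of the sequence outside the windows, 33.4% on X and 35.4% on the autosomes lay at 1 to 2 kb. At 2 to 5 kb lay 41.8% of this sequence on X and 37.6% on the autosomes, and beyond 5 kb 13.8% and 12.8%. A distance of more than 10 kb was reached by 12 members on X, and by 27 summits on the autosomes. The 2 most distant members, 35572 and 35370 bp from the start of Y73B3A.1, lay near the left end of the chromosome with signals of 285 and 76.0. The next, 16948 bp upstream of F57G12.1, had a signal of 99.8. Upstream of their nearest start lay 53.5% of the members and 50.5% of the autosomal summits.

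Summits stood on either side of the limit of 1000 bp. Nearest outside it, all 1008 bp upstream, stood 4 members, those of ptp-4A2 (signal 680), C35C5.10 (255), gid-2 (160) and egrh-1 (84.7). Just inside it, 995 bp upstream of T24D5.4, stood a promoter summit with a signal of 367. The 28 members in the first 100 bp beyond the limit had a median signal of 160, and the 29 promoter summits in the last 100 bp before it had 146.

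The signal, the authors' value for each peak, was slightly lower at the X members than in the autosomal class, with ranges that overlapped widely. It had a median of 191.6 (range 74.97 to 2768) on X and 204.0 (75.03 to 4246) on the autosomes. The 95% interval of the X median was 176.9 to 202.9. In the lists of the replicates the medians were 80.2 on X against 87.6 on the autosomes in replicate 1, and 113 against 120 in replicate 2. Each list has its own scale, so values are compared only within a list. Among the 500 strongest nuclear peaks were 47 of the members (4.52%, 3.34 to 5.97) and 186 of the autosomal summits outside promoters (6.51%, 5.63 to 7.48). The difference was -1.98 points (-3.45 to -0.31). In promoters the order was the other way, with a median of 236 on X and 200 on the autosomes.

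The strongest member lay 5041 bp upstream of bcat-1, which encodes a branched-chain amino acid aminotransferase. Its signal was 2768 in the IDR-passing list, 1275 in replicate 1 and 1506 in replicate 2. It ranked 13th among all nuclear peaks, and its single TGATAA stood near the edge of the window shown above. The next was in the first intron of fkh-9, a forkhead transcription factor gene, with 2020 in the IDR-passing list, 894 in replicate 1 and 1130 in replicate 2. The member in intron 3 of slc-25A21, a gene of the mitochondrial carrier family, had 1917, 914 and 1011 in the same 3 lists. The intergenic member nearest to sdz-19 had 1839, 947 and 886, and no member had more than its 4 TGATAA sites. These 4 were strong in both replicates, each within the 85 highest ranks of either list.

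Of the other 6 of the 10 strongest members, 2 were intronic. They lay in F43C9.1 (signal 1679, 3 sites) and in mob-2, a gene of the Mob family of kinase regulators (1661, 3 sites). The intergenic ones were nearest to M163.1 (1615, 1 site), to nhr-14, a nuclear hormone receptor gene (1529, 2 sites), to nipi-3, which encodes a Tribbles-like pseudokinase of innate immunity (1498, 2 sites), and to F46H5.7 (1433, 1 site). All 10 thus had at least 1 TGATAA within 100 bp, and 9 of the 10 lay between 929 and 4185 bp from their nearest start. The 3 strongest exonic members lay in hpo-34 (1413), in gln-1, a glutamine synthetase gene (1341), and in ccd-5 (1317). Their signals were 625, 619 and 601 in replicate 1 and 794, 726 and 707 in replicate 2. Beyond 5 kb, bcat-1 was followed by F13D11.3 (1324, 7334 bp upstream) and by dve-1 (1140, 6850 bp upstream), which encodes a homeodomain protein of the mitochondrial unfolded protein response. At the other end of the list, the members nearest to ttr-37 (74.98) and R03G5.6 (74.97), chosen after their values were seen, had no TGATAA.

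The peaks of the members recurred in both replicates' own lists. A summit within 100 bp stood in both lists for 1007 members (96.9%, 95.7 to 97.9), against 95.5% of the autosomal class. This share is not independent of the IDR filter, which used both replicates, and the IDR-passing peaks were the 9198 strongest of the pooled list. Of the 32 unmatched members, 16 lacked a match in replicate 1 alone, 15 in replicate 2 alone and 1 in both. Their median signal was 94.7, well below that of all members. Across the 1007 matched members Spearman's rho between the replicates' signals was 0.89, and across the 2730 matched autosomal summits it was 0.914. Summits that share libraries are not independent samples, so these values are descriptions.

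**Figure D2:**
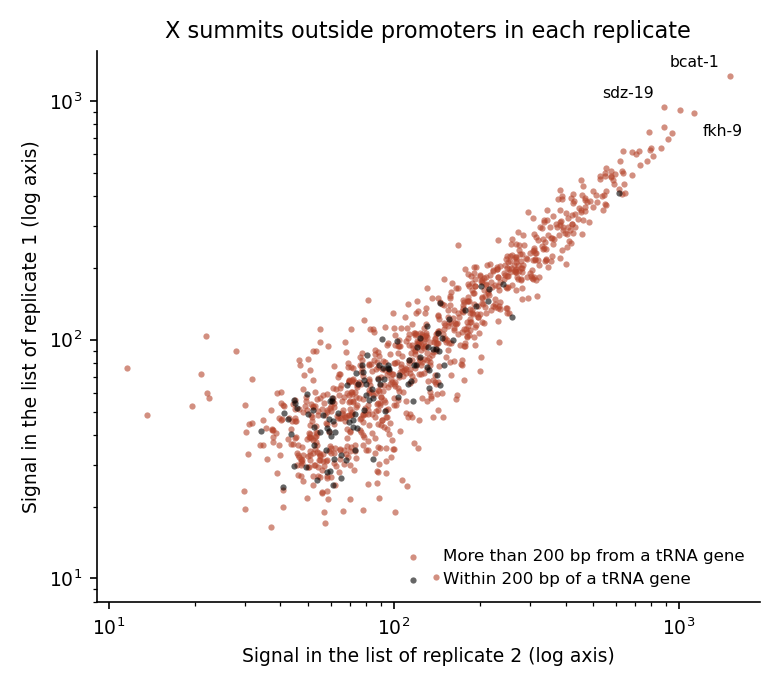
Signal of the 1007 matched X members in the list of replicate 1 against that of replicate 2, both axes logarithmic, with members within 200 bp of a tRNA gene in black and the others in red. The points follow 1 line from the weak members to bcat-1 (1275 in replicate 1 and 1506 in replicate 2), with more scatter among the weak ones, and the tRNA members sit mostly in the lower range.

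TGATAA was as frequent at the X members as at the autosomal summits, within counting error. It lay within 100 bp of 580 members (55.8%, 52.7 to 58.9), against 1657 autosomal summits (57.98%, 56.1 to 59.8), a difference of -2.15 points (-5.68 to 1.35). Flanks of the same length centred 500 bp to the left and right of the summit had it at 19.7% and 19.4% on X and at 16.7% and 18.6% on the autosomes. Tiles of that length with their centres outside the promoter windows had it at 18.7% on X and 17.1% on the autosomes. The looser site WGATAR was found at 74.1% of the members and at 73.8% of the autosomal summits.

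Summits with several sites were less frequent on X. At least 2 TGATAA lay within 100 bp of 224 members (21.6%, 19.1 to 24.2), against 805 autosomal summits (28.2%, 26.5 to 29.9), a difference of -6.61 points (-9.53 to -3.54). Peaks were also split into 4 groups of equal size by signal over all nuclear peaks. In the strongest group, 162 of 234 members (69.2%) had TGATAA, against 586 of 743 autosomal summits (78.9%), a difference of -9.64 points (-16.4 to -3.28). At least 2 sites stood at 34.6% of these members and at 49.4% of these autosomal summits, a difference of -14.8 points (-21.6 to -7.53). In the other 3 groups the intervals of the difference in TGATAA included 0, with 59.2%, 52.5% and 45.2% on X and 62.5%, 49.6% and 40.3% on the autosomes. The signal of members went up with the number of sites, with medians of 160, 195, 274 and 365 for 0, 1, 2 and at least 3 sites. On the autosomes these medians were 146, 211, 316 and 418.

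**Figure D3:**
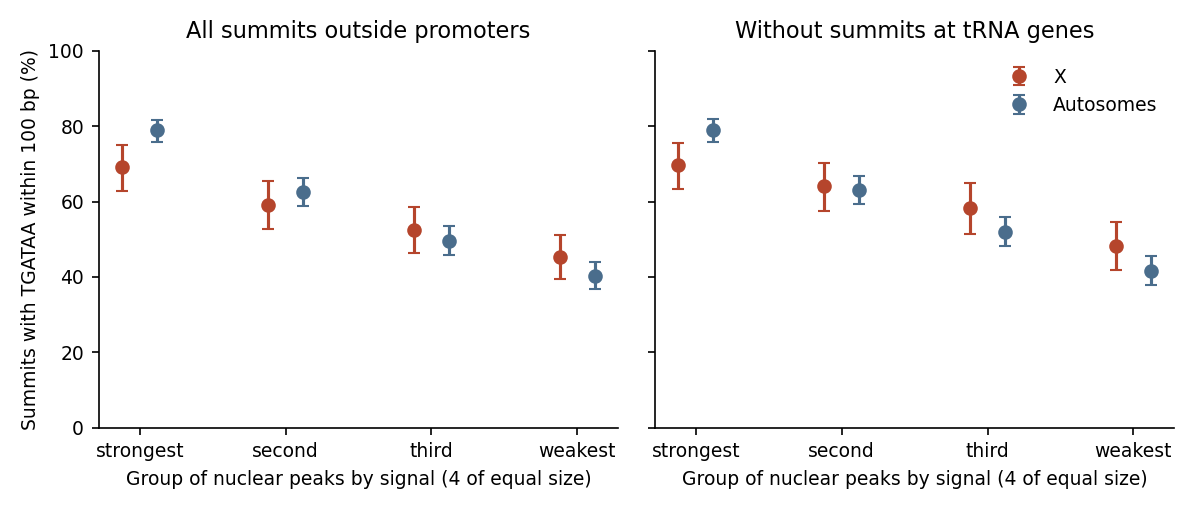
Share of summits outside promoters with TGATAA within 100 bp, by 4 equal groups of nuclear peaks from strongest to weakest signal, for X (red) and the autosomes (blue), with exact 95% intervals, for all summits (left) and without those at tRNA genes (right). In the strongest group X stood at 69.2% and the autosomes at 78.9% in the left panel, and X at 69.7% and the autosomes at 78.97% in the right panel.

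The difference in TGATAA between X and the autosomes was not the same in every place and distance class. TGATAA was found at 61.3% of the intronic and 64.2% of the exonic members but at 51.5% of the intergenic ones, against 58.4%, 53.6% and 58.6% on the autosomes. Of these 3 places, the interval of the difference excluded 0 for the intergenic class alone (-7.13 points, -11.8 to -2.50). At 1 to 2 kb from a start the site stood at 58.6% of members and 57.2% of autosomal summits (1.45 points, -4.16 to 6.93). At 2 to 5 kb the shares were 51.3% on X and 57.1% on the autosomes (-5.86 points, -11.4 to -0.27). Beyond 5 kb, 49.5% of members and 61.4% of autosomal summits had the site (-11.9 points, -23.04 to -0.57). All these shares by place and distance include the summits at tRNA genes, described below, and were not computed without them. The strongest members without any TGATAA, chosen after their values were seen, were those nearest to mdl-1 (signal 1237) and hrg-1, a haem transporter gene (1185). They were followed by those nearest to taf-3 (1093), named for a subunit of the general transcription machinery, and sma-9, a Schnurri-related gene of TGF-beta signalling (923). Each of these was listed in both replicates, with 617, 561, 450 and 465 in replicate 1 and 637, 622, 641 and 454 in replicate 2.

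Some other short words, though not all that were counted, also differed in frequency between members and autosomal summits. TGATAAG stood within 100 bp of 26.7% of members and 33.9% of autosomal summits, a difference of -7.24 points (-10.4 to -3.99). Without the summits at tRNA genes, described below, its shares were 29.2% and 34.9%, a difference of -5.68 points (-9.04 to -2.20). At promoter summits TGATAAG stood at 27.3% on X and 28.9% on the autosomes. CTGATAA stood at 25.3% of members and 26.1% of autosomal summits, a difference of -0.75 points (-3.79 to 2.40). These shares are per summit, and summits with several TGATAA were less frequent on X. Whether the base next to a TGATAA site differed was therefore not tested. The word GAGAGAG was found at 7.99% of members (83 summits) and at 400 of the 2858 autosomal summits, a difference of -6.01 points (-8.004 to -3.82). Tiles with their centres outside the promoter windows had GAGAGAG at 2.21% on X and 2.60% on the autosomes. At promoter summits GAGAGAG stood at 10.9% on X and 11.4% on the autosomes. CGCAGGG, the core of a motif known from sites where the dosage compensation complex loads onto X, was found at 20 members (1.92%, 1.18 to 2.96) and at 16 autosomal summits (0.56%, 0.32 to 0.91). The same tiles outside the windows had CGCAGGG at 0.31% on X and 0.30% on the autosomes. At promoter summits it stood at 13 on X (1.401%) and at 40 on the autosomes (0.92%), and the interval of that difference included 0. All words were counted on both strands, TGATAAG and CTGATAA overlap TGATAA, and a match is not shown to be a bound site.

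Summits at tRNA genes, which RNA polymerase III transcribes, took a larger share of the class on X. Within 200 bp of an annotated tRNA gene lay 108 members (10.4%, 8.61 to 12.4), against 107 autosomal summits (3.74%, 3.08 to 4.51), a difference of 6.65 points (4.78 to 8.75). The shares in the single lists were 9.99% on X and 3.26% on the autosomes in replicate 1, and 9.86% and 3.80% in replicate 2. X carries 276 annotated tRNA genes and the autosomes 336 together, and sequence that near to one makes up 0.74% of X outside the windows and 0.18% of the autosomes. A member stood at 118 of the 276 X genes (42.8%, 36.8 to 48.8), against 113 of the 336 autosomal genes (33.6%, 28.6 to 38.96). Of these genes, 221 on X and 221 on the autosomes had their centre outside the promoter windows. A member stood at 118 of those on X (53.4%, 46.6 to 60.1), against 111 of those on the autosomes (50.2%, 43.4 to 57.002), and these intervals overlap. With promoter summits counted too, the shares were 56.2% on X and 52.4% on the autosomes, with intervals that overlap.

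The tRNA members differed from the others in sequence and strength, on X as on the autosomes. TGATAA stood at 21.3% of them, near the level of the flanks, against 22.4% of the autosomal tRNA summits. Away from tRNA genes the shares were 59.8% on X and 59.4% on the autosomes, a difference of 0.47 points (-3.20 to 4.08). GTTCGA stood at 68.5% of the tRNA members and at 70.1% of the autosomal tRNA summits. Away from tRNA genes it stood at 6.23% of members and at 8.07% of autosomal summits. The median signal of the tRNA members was 145 and that of the other members 201. The corresponding autosomal medians were 132 and 210. In the 4 groups by signal, from strongest to weakest, tRNA members made up 1.28%, 8.80%, 14.6% and 15.3% of the class on X. The strongest of them, chosen after the values were seen, were those nearest to sur-7 (1019, in an exon) and ets-5 (428, intergenic). Their signals were 411 and 125 in replicate 1 and 615 and 259 in replicate 2. Without summits at tRNA genes, an alternative chosen after seeing the data, the density ratio of X to the autosomes was 1.45 (1.34 to 1.56). The difference in the share with at least 2 TGATAA was then -5.45 points (-8.58 to -2.16).

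**Figure D4:**
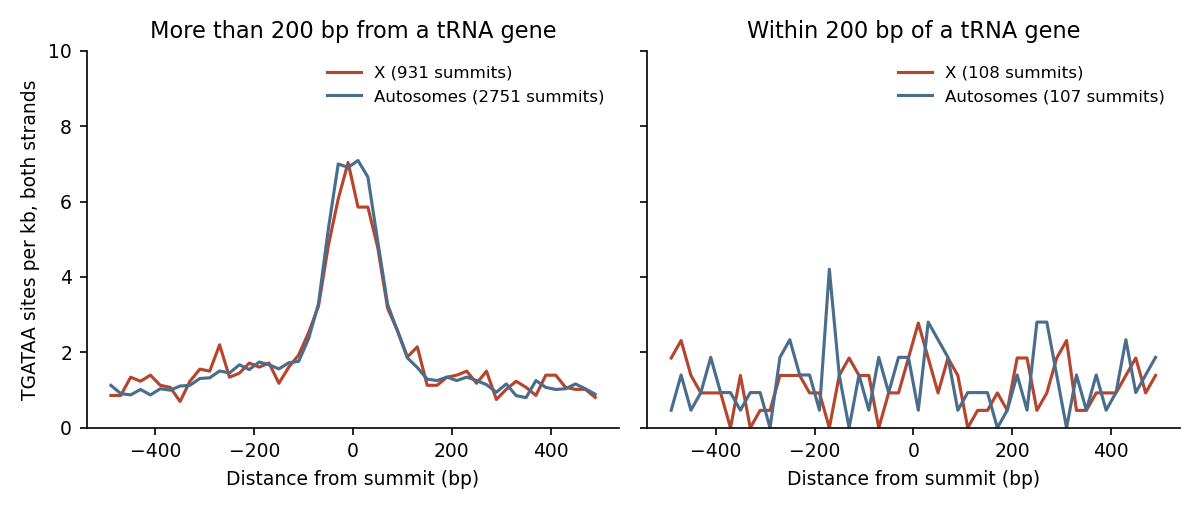
Density of TGATAA on both strands in steps of 20 bp around summits outside promoters, for X (red) and the autosomes (blue), for summits away from tRNA genes (left) and within 200 bp of one (right). Away from tRNA genes both curves peak at the summit, for 931 X and 2751 autosomal summits, and at the 108 X and 107 autosomal tRNA summits neither shows a peak of that kind.

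A coding gene was counted with a member if it was the nearest gene to it or held it within its span. The same member could count for several genes. By this rule 650 of 2731 coding genes on X (23.8%) and 2033 of 17242 on the autosomes (11.8%) had a member. Of the X genes, 255 had at least 2 members and 27 at least 5. The counts were not corrected for the span of the genes, whose median was 3.42 kb for X genes with a member and 2.31 kb for those without. The 4 genes with the most members, mdl-1, fkh-9, lin-14 and mxl-3, all encode nuclear regulators of transcription. The fifth place was shared by 5 genes with 7 members each, of which F57G12.1 had the strongest one.

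The gene with the most members was mdl-1, which encodes a Mad-like basic helix-loop-helix protein and spans 1.55 kb. It was the nearest gene to 10 members, of which 1 lay in its own intron, 4 in the spacers on either side and 5 in introns of abts-4. Their signals ran from 119 to 1237 with a median of 417, and 6 had TGATAA. All 10 were matched in both replicates, and the strongest, just downstream of the gene, was 1 of the 4 without the site. Between 6736460 and 6750370, around the gene, lay 13 members in all.

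Around fkh-9 lay 9 members, 3 of them in its own introns, 2 in F35A5.1 downstream and 4 upstream. The intronic summit described above was the strongest, followed by 1398 and 813 at 2866 and 5252 bp upstream. Of the 9, 7 had TGATAA. The heterochronic gene lin-14, whose nuclear protein times larval cell fates, had 8 members, 6 in its introns and 2 upstream. Signals there ran from 75.8 to 1088, and the 4 strongest (1088, 793, 793 and 596) all had TGATAA.

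The 8 members of mxl-3, which encodes a Max-like partner protein of the same helix-loop-helix family as mdl-1, were different in sequence. Only 1 of the 8, in an exon, had TGATAA within 100 bp. Their signals ran from 90.5 to 514 with a median of 212, and 7 were matched in both replicates. With its neighbours C49F8.15 and C49F8.1, mxl-3 belonged to the group with the most members in 20 kb of X, 14 between 13348626 and 13368505, of which 3 had TGATAA and none lay at a tRNA gene. The 7 members of F57G12.1 trailed from 1338 to 16948 bp upstream of it, with the nearest the strongest (864).

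**Figure D5:**
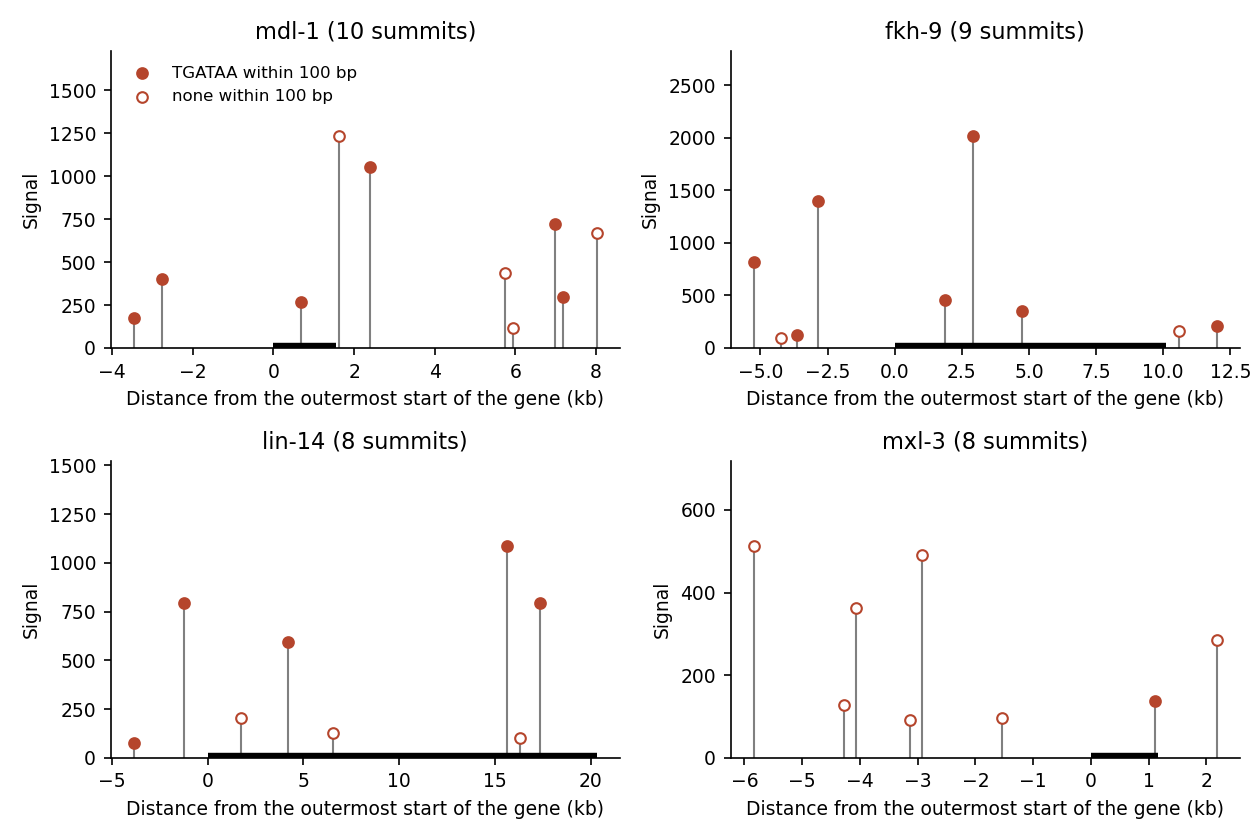
Signal of each member counted to mdl-1, fkh-9, lin-14 and mxl-3 against its distance in kb from the outermost start of the gene, in the direction of transcription, with the span of the gene as a black bar. Filled points have TGATAA within 100 bp and open points have none, and at mxl-3 7 of the 8 points are open.

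Other genes with many members, chosen after the counts were seen, were daf-12, the nuclear receptor gene of the dauer decision, with 7 members, all in its introns and up to 705 in signal, and nhr-1 with 7, none within its span. The intronic members of H18N23.2 numbered 7 as well, and rgs-7, a regulator of G protein signalling, also had 7. Another 6 genes had 6 members each: bcat-1, the trehalose synthesis gene tps-1, the sodium pump subunit gene nkb-3, abts-4, nhr-27 and ZK470.2.

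Lists of genes by role gave shares from 12.5% to 64.3%, beside 23.8% of all X genes, and from 6.82% to 48.3% on the autosomes, beside 11.8% of all autosomal genes. Of 28 X genes on a list for the intestine, 11 had a member (39.3%, exact interval 21.5 to 59.4), against 28 of 58 autosomal genes of the list (48.3%, 34.95 to 61.8). The strongest were hrg-1 (1185) and nuc-1, a nuclease gene of lysosomal DNA degradation (1050). The others were the gut granule gene glo-3 (749), the protease genes cpr-6 (447), asp-3 (413) and asp-4 (81.5), ifc-2 of the intestinal intermediate filaments (373), the peptide transporter gene pept-1 (367), spp-3 (226), dhs-28 (204) and pbo-4 (183). All 11 also had a summit in a promoter window of their own. The same share over all X genes with a member was not computed, so this count has no background beside it. The strongest member of glo-3 was also counted to slcf-1, which held it. The yolk protein genes vit-1 to vit-5, all on X, had no member. The gene elt-2 was also counted as without a member, although it lay in the stretch without a summit in any list.

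Of 35 X genes on a list of transcription regulators, 13 had a member (37.1%, 21.5 to 55.1), 47 members in all, against 25 of 53 on the autosomes (47.2%, 33.3 to 61.4). Those with the strongest members were lin-14 (1088) and ets-4, an ETS domain gene (1033). Below them came sma-9 (923), nhr-3 (892), the homeodomain gene ceh-60 (795), daf-12 (705), the epidermal GATA factor gene elt-3 (557) and 6 more from xol-1 (536) to egl-13 (163). The gene xol-1 was also on the list of genes that signal or equalise the dose of X, described below. Among the 8 families of at least 15 X genes defined by symbol, which were looked at after the counts were seen, nuclear receptor genes had the highest share. Of 23 nhr genes on X, 14 had a member (60.9%, 38.5 to 80.3), with 50 members together. The median span of these 23 genes was 4.48 kb, against 2.55 kb for all X coding genes. Among the 8 families it ran from 0.43 kb (nspc) to 6.86 kb (unc), and the shares were not corrected for it. The nhr genes with the strongest members were nhr-14 (1529), nhr-3 (892), nhr-45 (627) and nhr-27 (600), and all 6 members of nhr-27 lay in its introns. That gene spans 102.8 kb and encloses cept-1 and alh-13, to which members in its introns were counted too. The strongest member of nhr-27 was also the strongest of cept-1. Of 18 homeobox genes named ceh, 2 had a member (11.1%), and of 27 collagen genes named col, 3 (11.1%).

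Of 14 X genes for signalling and growth, 9 had a member (64.3%, 35.1 to 87.2), against 23 of 60 on the autosomes (38.3%, 26.1 to 51.8). Those with the strongest members were the kinase genes sek-1 of innate immunity (622) and pdk-1 of insulin signalling (524). They were followed by the Wnt receptor gene lin-18 (488), the AMP-activated kinase gene aak-2 (419), sma-5 (226) with 5 members, kin-2 (160), mek-1 (135), the beta-catenin gene bar-1 (110) and akt-2 (76.6). None of the 2 members of pdk-1 and the 2 of aak-2 had TGATAA. Neither member of sek-1 lay within its span, and its strongest was also counted to R03G5.6, which held it. The median span of the genes on this list was 5.63 kb, against 2.55 kb for all X coding genes.

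Lists for other tissues gave shares whose intervals on X included the 23.8% of all X genes. The X intervals of the intestine list (21.5 to 59.4) and of the transcription regulator list (21.5 to 55.1) included it too. That of signalling and growth (35.1 to 87.2) lay above it. Of 38 neuronal genes on X, 8 had a member (21.1%, 9.55 to 37.3), against 9 of 51 on the autosomes (17.6%, 8.401 to 30.9). The strongest were at the calcium channel gene unc-2 (233) and at sax-3, the Robo receptor gene (203), and none of the 8 genes exceeded 233. None of the 8 had a summit in its own promoter windows, and here too the share over all X genes with a member was not computed. Of 16 muscle genes on X, 2 had a member (12.5%, 1.55 to 38.3), the troponin genes mup-2 (382) and unc-27 (97.3), against 3 of 44 on the autosomes (6.82%, 1.43 to 18.7). Of 6 X genes that signal or equalise the dose of X, only xol-1, the switch gene of sex determination, had members, against 4 of 13 on the autosomes. The 2 members of xol-1 had signals of 536 and 255, and neither had TGATAA. The lists are short, so their intervals are wide. The counts were not corrected for the span of the genes, and whether span bears on them was not tested.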

How the data were processed

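Anti-GFP ChIP-seq peak lists of ELT-2 in L3 worms were analysed, from 2 biological replicates of 1 group. The authors deposited, per the file headers and values, a list for each replicate (28033 peaks in replicate 1 and 30000 in replicate 2), a pooled list (30000) and an IDR-passing list (9198, of which 17 mitochondrial peaks were left out). The signal column, a value per peak that the authors deposited, served only to describe, rank or split peaks within a list. Caller, aligner and IDR threshold were "not given in the sources used here", and a control library was not analysed here. The lists hold no read counts, so depth is unknown. Lists on build ce10 were not used here.

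Summits were classified against protein-coding transcripts of WBcel235 (Ensembl release 115), the assembly named ce11, in the order promoter window, exon, intron, intergenic. TGATAA was counted on both strands within 100 bp of the summit in the RefSeq sequence of that assembly. Shares have exact (Clopper-Pearson) 95% intervals, differences Newcombe intervals and density ratios exact conditional intervals. No p-value was computed, because both samples form 1 group and summits are not replicates. Replicates were matched by summits within 100 bp. Named regions were the 10 strongest members, the 3 strongest in intron, exon and intergenic sequence and beyond 5 kb, the 5 genes with the most members, the 2 strongest genes per list, the members beside the 1000 bp limit and the farthest one, and any other was chosen after seeing its values. The members and the 6 gene lists (413 symbols, of which 411 matched the annotation) were chosen with earlier results of these data known. Alternatives covered the windows, the peak strength, the replicates, the site, the position within the peak, the chromosome part and the matching. The tools were Python 3.11.15 with pandas 2.3.3, numpy 2.4.6, matplotlib 3.10.9 and scipy 1.17.1, and the steps were tested on simulated data.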

Additional observations from a re-analysis of the deposited data

How the results depend on the processing

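Over 7 measures, 61 alternative values were computed. Of these, 41 stayed within the 95% interval of the reported value, 20 moved outside it, and in none did the density ratio cross 1. The share of X summits outside promoters was 64.7% with windows of 500 bp upstream to 200 bp downstream (autosomes 52.9%), 38.9% with 2000 bp upstream (26.7%), 36.4% with windows of every gene biotype (28.3%), 47.9% among the stronger peaks, those above the median signal (39.97%), and 49.4% in the central parts (37.3%). The density ratio ran from 1.23 in the central parts to 1.62 with 2000 bp upstream, and was 1.44 among the stronger peaks. The share of members with TGATAA was 42.2% within 50 bp, 66.1% within 200 bp, 74.1% for WGATAR, 64.05% among the stronger peaks, 61.2% with windows of every biotype and, chosen after seeing the data, 59.8% without summits at tRNA genes. Beyond 5 kb lay 13.7% of members with 2000 bp upstream, 8.25% with the narrow windows and 6.98% with windows of every biotype. The share matched in both replicates was 87.6% within 50 bp, 99.1% by any overlap and 99.4% among the stronger peaks, whose median signal was 379. With 1 replicate left out, the share outside promoters ran from 52.2% to 52.9%, the density ratio from 1.51 to 1.55, the intron share from 30.7% to 31.4%, the share beyond 5 kb from 9.80% to 10.3% and the TGATAA share from 55.8% to 55.96%. No paired analysis was possible because both samples belong to 1 group. Depth is unknown, so how it limits weak members could not be assessed.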
